A study of Mus musculus with 9 samples.

Results

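Chemokines and their receptors were followed across the cells of mouse liver in a study of clusterin, a secreted chaperone, and liver scarring. The genes were all symbols of the deposited gene table that begin with Ccl, Cxcl, Cx3cl or Xcl and a number, or that consist of Ccr, Cxcr, Cx3cr, Xcr or Ackr and a number. The rule found 62 of 53713 genes, 40 ligands and 22 receptors. The study profiled single liver cells of C57BL/6J mice aged 6 to 8 weeks in 9 samples. Wild-type mice given carbon tetrachloride (CCl4), a liver toxin, for 0, 2 or 4 weeks gave 1 sample each. The other 6 samples are labelled CluKO, a clusterin knockout genotype, and these mice were given both CCl4 and recombinant human clusterin; the labels do not state for how long. All 6 were deposited together as 1 matrix, and its barcodes do not say which sample a cell came from. It is the matrix in which rows are paired with gene names here, so the levels below are those of 1 pooled sample, and the comparison of groups was not analysed here.

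Chemokines are small secreted proteins that steer leukocytes along gradients held on cell surfaces. They are named by the spacing of their first cysteines (CC, CXC, CX3C, XC), and most bind several receptors, which signal through inhibitory G proteins. The atypical receptors (Ackr genes) bind chemokines without this signalling and remove or transport them. In injured liver, CCL2 is known for drawing in monocytes that carry CCR2, and CXCL1, CXCL2 and CXCL5 for drawing in neutrophils that carry CXCR2. CXCL12 acts on CXCR4, CXCL16 on CXCR6, and CXCL13 on CXCR5 of B cells.

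The matrix labelled CluKO held 4694 barcodes, none of them repeated, and 28912707 unique molecular identifiers (UMIs, tags that count each captured transcript once). After a filter on detected genes and mitochondrial counts, 4616 cells remained. The gene named in the label was itself counted in this matrix, with 13751 UMIs of Clu in 1471 cells. Cells were placed in classes by UMIs of fixed marker genes, none of which is a chemokine gene. The 19 classes shown held 40 to 642 cells each, except 17 B cells, 16 endothelial cells and 16 neutrophils low in secondary granules. After an order of precedence between some gates, a further 201 cells were still in more than 1 class. Another 263 passed no gate, and both sets were left out of the levels. The 19 classes also leave out 47 macrophages with both the Kupffer and the lipid-associated markers and 33 other macrophages. They leave out 13 other, 4 mature, 4 plasmacytoid and 3 type 2 conventional dendritic cells as well. These cells count in the broad macrophage and dendritic classes below. The mesothelial gate took precedence over the stellate or fibroblast and the cholangiocyte gates. Beyond the cells it took, 4 were gated as stellate or fibroblast and 0 as cholangiocyte, and no levels are given for these types. Median depth ran from 2760.5 UMIs per cell in endothelial cells to 10347.5 in granulocyte-monocyte progenitors.

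Levels are CPM, the summed count of a gene in a class per 1000000 UMIs of that class, with exact 95% Poisson intervals in brackets. A share is the percentage of cells with at least 1 UMI. The intervals hold counting error alone, mice cannot be told apart, and no test was run because cells of a pooled sample are not replicates. Levels are compared between classes for a gene, or for a fixed list of genes, and not between genes.

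Of the 62 genes, 53 had at least 1 UMI and 41 had at least 30, of which 24 are ligands and 17 receptors. A gene was called restricted when its level in the highest of 11 broad classes was at least 4-fold above the next, with 20 CPM added to both. This held for 13 of the 41 (31.7%), against 5.92% of the 13759 genes with at least 30 UMIs. The 9 restricted ligands were Ccl2, Cxcl1 and Cxcl5 (mesothelial cells), Ccl24 (macrophages), Ccl3 and Ccl4 (basophils or mast cells), Cxcl2 (neutrophils), Cxcl9 (dendritic cells) and Xcl1 (T or NK cells). The 4 restricted receptors were Ackr3 (mesothelial cells), Cxcr6 (T or NK cells), Xcr1 (dendritic cells) and Ccr10 (plasma cells). The 11 classes leave out endothelial and B cells, with fewer than 40 cells each, and the 59 cells with macrophage and neutrophil markers. Ackr3 had 99.7 CPM in endothelial cells against 162 in all mesothelial cells, and Cxcl2 had 566 in the 59 cells against 217 in all neutrophils. Ccl2 had 455 CPM in the 59 cells against 635 in all mesothelial cells. Ccl4 had 295 there against 534 in basophils or mast cells. Cxcl9 had 79.7 in endothelial cells, from 4 UMIs, against 123 in all dendritic cells. The call of these genes thus depends on the classes ranked. The count was 8 with every cell thinned to 1000 UMIs and 20 with an offset of 5 CPM. Without the cell with most UMIs in each class, it was 11, with Cxcl9, Cxcl2 and Xcl1 lost and Ccl5 gained. Cxcl2 was also lost with stricter gates and with cells of more than 1 class kept.

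**Figure D1:**
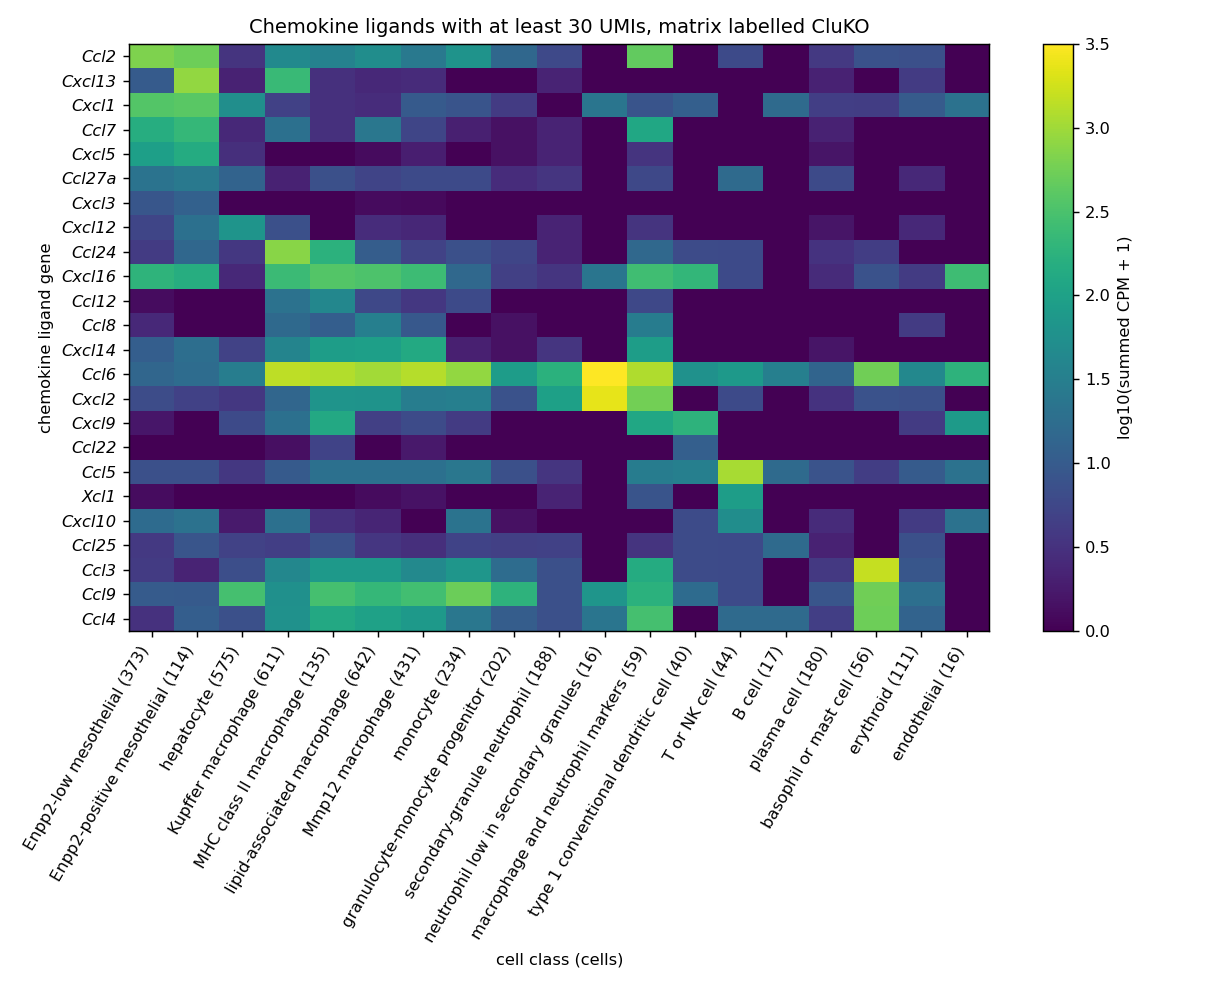
Levels of the 24 chemokine ligands with at least 30 UMIs (rows) in 19 cell classes (columns, with the number of cells), as log10 of the summed CPM plus 1. Ccl6 is bright across all macrophage classes, while Ccl2, Cxcl1, Ccl7 and Cxcl5 are bright in both mesothelial classes and Ccl3 in basophils or mast cells.

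Mesothelial cells, which line the liver surface, carried a set of ligands for monocytes and neutrophils. This held for Ccl2, Ccl7, Cxcl1, Cxcl5 and Cxcl3. The level of Ccl2 was 662 CPM (634 to 690) in the 373 cells with fewer than 2 UMIs of Enpp2 (Enpp2-low) and 529 (480 to 581) in the 114 with 2 or more (Enpp2-positive). In Kupffer cells, the resident macrophages of the liver, it was 44.8 CPM, which put the Enpp2-low cells 14.8-fold higher (12.3 to 18.0). Ccl2 was detected in 31.6% of Enpp2-low and 33.3% of Enpp2-positive cells, against 0.870% of hepatocytes, which serve as a background here. Their median depths were 7735, 6160 and 3347 UMIs. With every cell thinned to 1000 UMIs, the same shares were 17.4%, 18.4% and 0.174%, so the mesothelial classes stood above hepatocytes at equal depth.

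Ccl7, a further ligand of CCR2, had 151 CPM (137 to 164) in Enpp2-low and 215 (184 to 250) in Enpp2-positive cells, and at most 23.2 CPM in the Kupffer, lipid-associated, MHC class II and Mmp12 macrophages. Its next broad class, dendritic cells, had 159 CPM, but 37 of its 44 UMIs came from 1 cell, and the level without that cell was 25.8. Cxcl1 had 365 CPM (345 to 386) in Enpp2-low and 397 (354 to 443) in Enpp2-positive cells. The 64 dendritic cells had 61.4 CPM, of which 18.4 were left without 1 cell. Hepatocytes had 52.9 CPM (44.3 to 62.5), so that Enpp2-low cells were 6.91-fold higher (5.78 to 8.31). Mesothelial markers summed to 1385 CPM in hepatocytes, against 9670 in Enpp2-low cells, while Ccl2 had 2.33 CPM in hepatocytes, and the part of mesothelial RNA in their Cxcl1 was not tested. Cxcl5 had 92.7 CPM (82.5 to 104) and 142 (117 to 170) in the 2 mesothelial classes and at most 3.61 CPM in every other class. A single cell held 107 of the 300 UMIs of Cxcl5 in Enpp2-low cells, and without it the level was 59.9 CPM. Cxcl3, with 36 UMIs in 10 cells in all, had 7.73 and 11.2 CPM in the mesothelial classes, 34 of its 36 UMIs.

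These ligands were often found in the same mesothelial cells. Of 88 cells with Ccl7, 80.7% had Ccl2, against 21.3% of the cells without Ccl7. Of 116 cells with Cxcl1, 67.2% had Ccl2, against 21.0% of the rest. Of 58 cells with Cxcl5, 58.6% had Cxcl1, against 19.1% of the rest. Cells with a given ligand were deeper than those without (median 8889.5 against 7015 UMIs for Ccl7), and the part of depth in these shares was not tested.

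Cxcl1, Cxcl2 and Cxcl3 lie beside Cxcl5 and Cxcl15 within 147 kb of chromosome 5, yet Cxcl2 was highest in neutrophils and not in mesothelial cells. Their promoters are shown because neighbouring genes with a like promoter differed in the class where they were highest. Each line is the 100 bases that begin 140 bases before the start of transcription, on the plus strand (RefSeq, GRCm38.p6). Capitals mark the longest run of bases that all 3 share in the 250 bases before the start, GGGAATTTCCC, which has the form of a site for the transcription factor NF-κB. The stretches are chr5:90891105-90891204 for Cxcl1, chr5:90903759-90903858 for Cxcl2 and chr5:90785961-90786060 for Cxcl3.
Cxcl1: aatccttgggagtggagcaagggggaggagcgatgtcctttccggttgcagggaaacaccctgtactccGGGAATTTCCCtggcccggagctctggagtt
Cxcl2: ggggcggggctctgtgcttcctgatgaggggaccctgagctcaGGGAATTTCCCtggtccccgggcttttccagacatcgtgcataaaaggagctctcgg
Cxcl3: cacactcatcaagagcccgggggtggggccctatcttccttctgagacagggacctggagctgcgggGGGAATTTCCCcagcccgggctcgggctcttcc
The run begins 71 bases before the start in Cxcl1, 97 in Cxcl2 and 73 in Cxcl3, so the gene highest in neutrophils has it as well as the 2 highest in mesothelial cells. Searched on both strands, it was in 14 of the 32851 RefSeq windows of this length (0.0426%). Of the 45 members with an entry in the table, these 3 held it, which the choice of the run fixes. A match describes the letters and does not show that the factor binds there.

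Cxcl2 and its receptor gene Cxcr2 were both highest in neutrophils with few secondary granule transcripts (Ltf, Camp and Ngp). In these 16 cells Cxcl2 had 2354 CPM (1929 to 2844). In the 188 neutrophils rich in those transcripts it had 97.1 CPM (76.9 to 121), a ratio of 24.2 (18.0 to 32.8). Cxcr2 had 1518 CPM (1181 to 1921) in the former and 348 (309 to 391) in the latter, 4.36-fold apart (3.30 to 5.69). It was detected in 16 of the 16 and in 60.1% of the 188 cells. Ccl6 had 3080 CPM in the former and 170 in the latter, and Ccr1, a receptor of several CC ligands, had 660 and 257. The class of 16 cells held 45457 UMIs in all, and 13 neutrophils lay within 2-fold of the value that separates the classes.

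A set of 59 cells carried both macrophage and neutrophil markers and was kept apart. Its summed macrophage markers were at 22820 CPM, against 25360 in lipid-associated macrophages, and its neutrophil markers at 18810, against 217800 in secondary-granule neutrophils and 433 in lipid-associated macrophages. Cxcl2 had 566 CPM (496 to 642) in these cells and was detected in 71.2% of them. That was 9.19-fold (7.65 to 11.1) above the 61.5 CPM of lipid-associated macrophages. Cxcr2 had 259 CPM (213 to 312) and was present in 79.7% of the cells. Ccl2 reached 455 CPM there, from 10 cells, and 199 CPM without the cell that held most. Whether these are single cells or pairs was not tested. In the same cells, Cxcl1 had 7.07 CPM, from 3 UMIs. Basophils or mast cells also had Cxcr2, at 97.7 CPM (65.9 to 140).

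**Figure D2:**
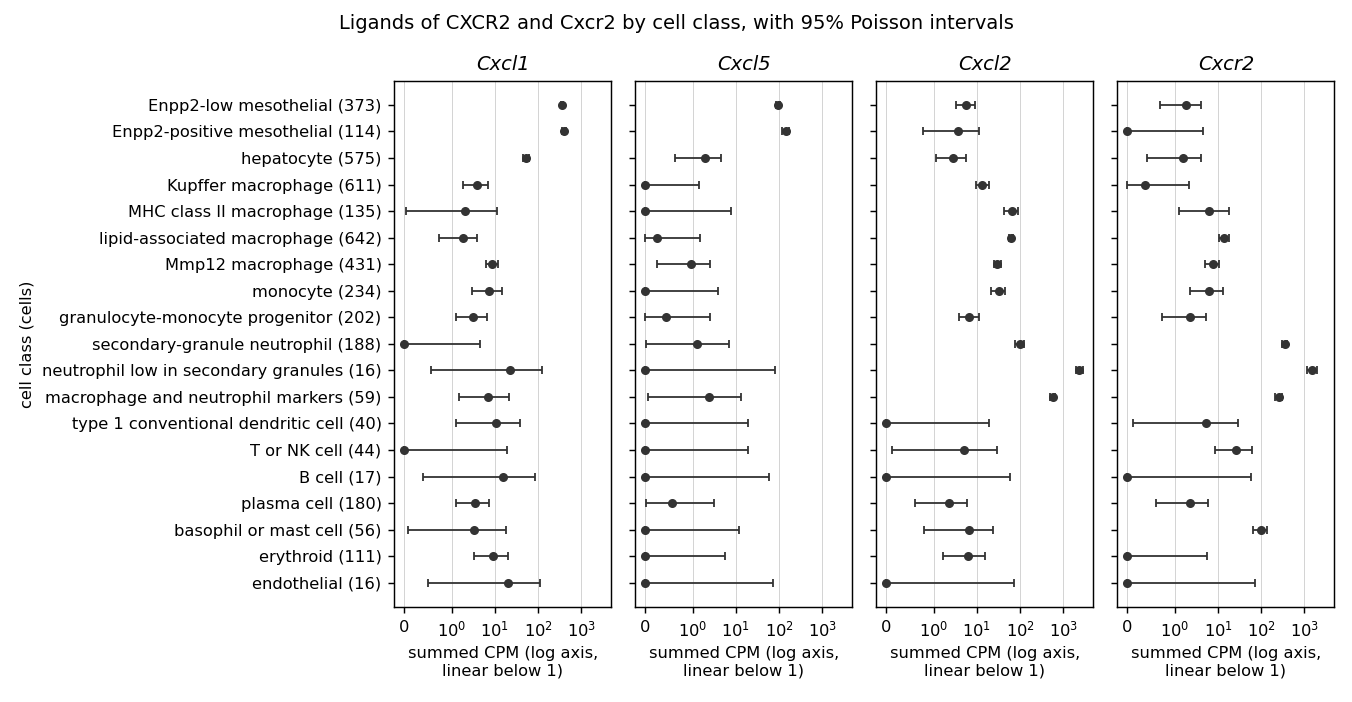
Summed CPM (horizontal, log axis that is linear below 1, with 95% Poisson intervals) of Cxcl1, Cxcl5, Cxcl2 and Cxcr2 in 19 cell classes. Cxcl1 and Cxcl5 are highest in both mesothelial classes, whereas Cxcl2 and Cxcr2 are highest in the 16 neutrophils low in secondary granules.

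The second comparison set Enpp2-positive against Enpp2-low mesothelial cells. Enpp2 encodes autotaxin, a secreted enzyme that makes lysophosphatidic acid. Cxcl13, the B cell attracting ligand, was far higher in the Enpp2-positive cells, with 868 CPM (805 to 935) against 8.96 (6.00 to 12.9). It was detected in 23.7% of the Enpp2-positive and 4.56% of the Enpp2-low cells. A single cell held 274 of the 698 UMIs, and without it the level was 532 CPM. On the scale of log2 with 20 CPM added, the difference was 4.94, and 3.75 with stricter gates. Under the stricter gates, dendritic cells and not mesothelial cells were the highest broad class of Cxcl13, and it was called restricted. Of 13 members with at least 30 UMIs over both classes, Cxcl13 was the 1 gene at least 2-fold higher (background over 9687 genes 1.79%), and 0 were at least 2-fold lower (background 2.09%). The median difference over the 13 was 0.14 on this scale, against 0.024 over all genes.

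The other 12 stayed within 2-fold. Cxcl5 was 1.53-fold higher in the Enpp2-positive cells (1.22 to 1.90) and Ccl7 1.43-fold (1.20 to 1.70), but with stricter gates the difference went from 0.52 to 0.17 for Cxcl5 and from 0.46 to -0.05 for Ccl7 on the log2 scale. Thinned to 1000 UMIs, Cxcl5 was at 0.10. Without the cell with most UMIs in each class, Cxcl5 had 110 CPM in Enpp2-positive and 59.9 in Enpp2-low cells. Ccl2 was 1.25-fold higher in the Enpp2-low cells (1.13 to 1.39), Cxcl16 1.26-fold (1.03 to 1.54) and Ackr3 1.35-fold (1.09 to 1.68). For Cxcl1 the ratio of Enpp2-positive to Enpp2-low was 1.09, and its interval of 0.958 to 1.23 held 1. Cxcl12 had 18.7 against 4.33 CPM, but its 29 UMIs fell under the count minimum. Markers of stellate cells and fibroblasts moved with this split. Their summed level was 9138 CPM in the Enpp2-positive (3 of 9 markers at 0) and 5584 in the Enpp2-low cells (2 at 0), while mesothelial markers had 5457 and 9670. Dendritic cell markers had 537 and 233 CPM and monocyte markers 450 and 218, while endothelial markers had 18.7 and 77.6. Cells that passed the mesothelial gate and also the dendritic or the stellate or fibroblast gate were counted as mesothelial. The part of these cell types in the Cxcl13 difference was not tested. Of the 487 mesothelial cells, 31 had 1 UMI of Enpp2 and 14 had 2, just beside the value that splits them.

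**Figure D3:**
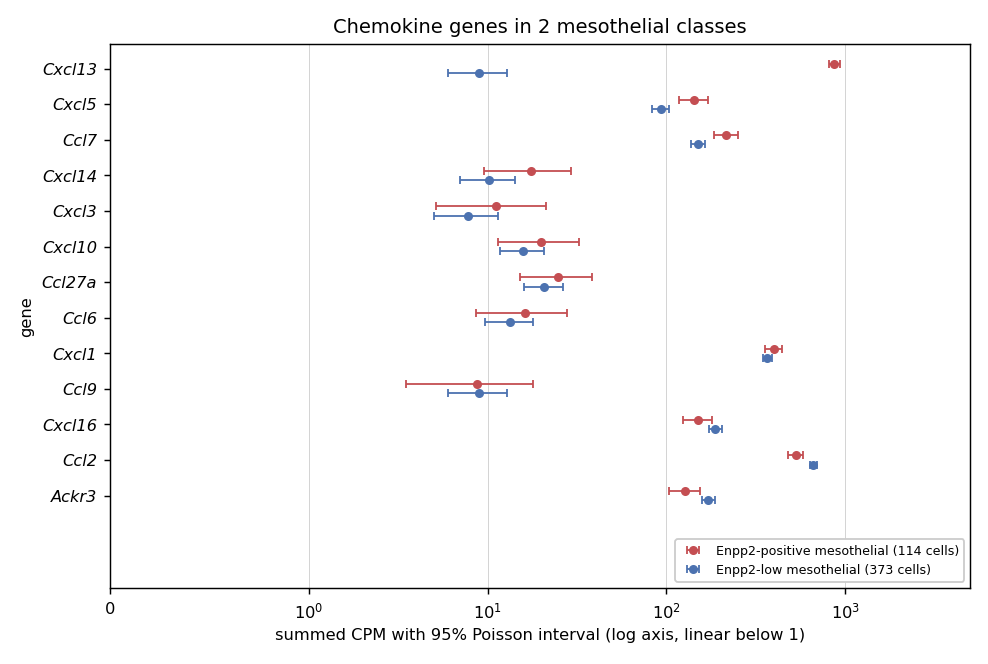
Summed CPM (log axis, linear below 1) with 95% Poisson intervals of the 13 members with at least 30 UMIs, in Enpp2-positive (red) and Enpp2-low (blue) mesothelial cells. Cxcl13 is separated by 868 against 8.96 CPM, and the other genes lie close together.

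Kupffer cells had the next highest level of Cxcl13, at 234 CPM (216 to 253) in 29.0% of 611 cells. Enpp2-positive mesothelial cells were 3.71-fold higher (3.33 to 4.15). The receptor gene Cxcr5 had 9 UMIs in all cells, of which 7 were in the 17 B cells.

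Among macrophages, ligands divided by subclass. Kupffer cells had at least 4 of Clec4f, Vsig4, Cd5l, Timd4, Folr2 and Marco. They were compared with lipid-associated macrophages, which had at least 4 of Gpnmb, Spp1, Trem2, Fabp5 and Cd63. The latter also had at least 5 UMIs of Gpnmb and fewer than 5 of Mmp12. The 47 macrophages that met both sets were in neither class. Ccl24, a ligand of the eosinophil receptor CCR3, had 761 CPM (728 to 796) in Kupffer cells and 9.91 (7.01 to 13.6) in lipid-associated cells, 76.8-fold apart (55.8 to 109). It was detected in 70.5% and 4.98% of the cells, with median depths of 4064 and 5507.5 UMIs. Cxcl13 had 234 against 1.56 CPM. Both were among the 3 of 23 tested members that were at least 2-fold lower in lipid-associated cells, where the background over 9581 genes was 4.76%.

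In the other direction, 6 of the 23 members (26.1%) were at least 2-fold higher in lipid-associated cells, against 1.91% of all genes. Of these, 4 are receptors. Ccr1 had 75.9 against 3.44 CPM, a ratio of 22.0 (11.5 to 48.7). Ccr2 had 69.6 against 3.44, and Cx3cr1, the receptor of fractalkine on monocyte-derived cells, had 84.5 against 7.27. Cxcr4 had 88.1 against 17.2 CPM, a ratio of 5.12 (3.74 to 7.15). The ligands were Ccl9, with 215 against 56.6 CPM, and Cxcl2, with 61.5 against 13.4. The median difference over the 23 was 0.43 on the log2 scale, against -0.11 over all genes. With an offset of 5 CPM the count of both directions rose from 9 to 15, adding Cxcr2 and Cxcl14 to the higher and Cxcl9, Cxcl10, Ccr3 and Ccl12 to the lower genes.

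Marker lists of other cell types moved with this comparison. Endothelial markers summed to 886 CPM in Kupffer and 23.7 in lipid-associated cells, dendritic cell markers to 568 and 175, and T or NK cell markers to 8.03 and 85.8. In the same order, neutrophil markers had 276 and 433 CPM, monocyte markers 968 and 754, and hepatocyte markers 402 and 158. Their part in these differences was not tested.

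Several ligands were shared by the 2 classes. Ccl6, a CC ligand of rodents, had 1043 CPM (lipid-associated) and 1420 (Kupffer), and was detected in 91.3% and 94.8% of the cells. In plasma cells, which serve as a background, it had 12.4 CPM in 11.7% of cells at a median depth of 8901 UMIs. Cxcl16, which is made as a membrane-bound protein, had 328 (310 to 346) and 238 CPM, 1.37-fold apart (1.25 to 1.52). Ccl2 had 50.3 and 44.8 CPM, with an interval of the ratio (0.889 to 1.43) that held 1. The gate counted 151 macrophages with 3 Kupffer markers and 72 with 4, just beside its minimum.

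**Figure D4:**
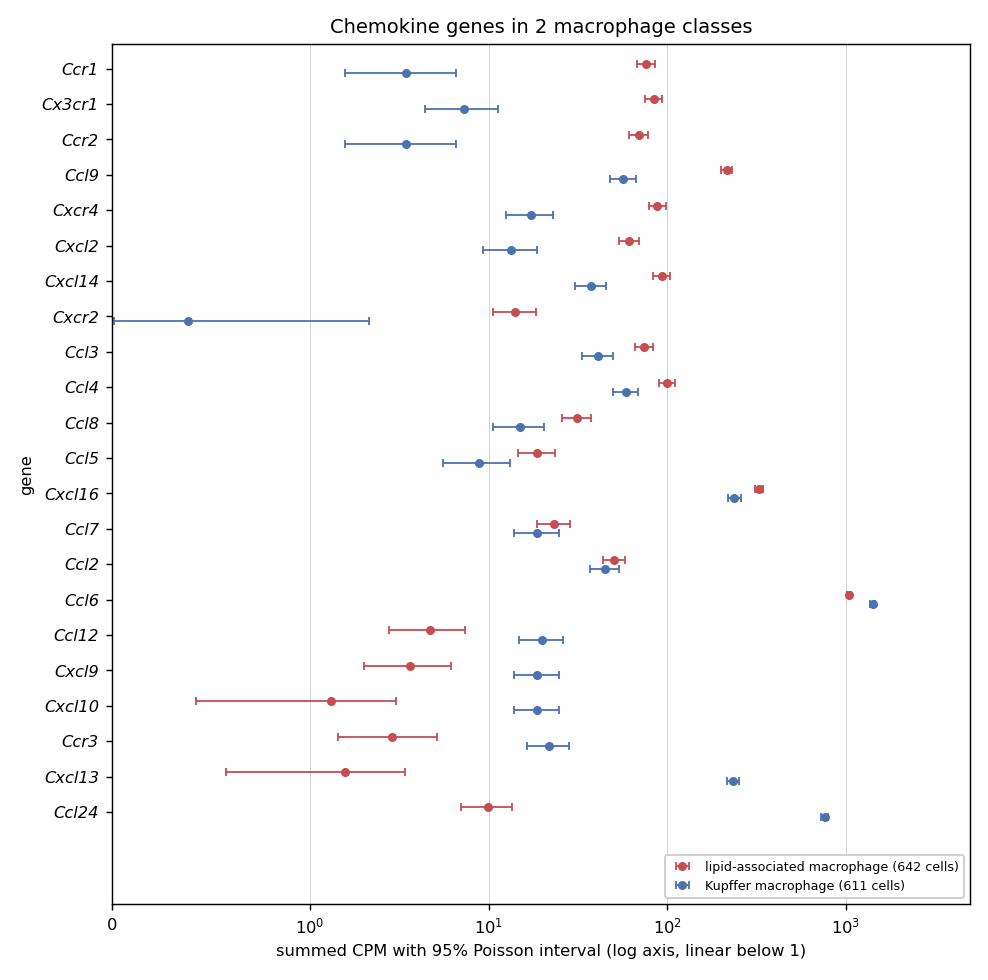
Summed CPM (log axis, linear below 1) with 95% Poisson intervals of 22 members with at least 30 UMIs, in lipid-associated (red) and Kupffer (blue) macrophages. Ccr1, Cx3cr1 and Ccr2 lie to the right in lipid-associated cells, and Cxcl13 and Ccl24 in Kupffer cells.

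The remaining macrophage ligands had their own order. Cxcl14 had 131 CPM (120 to 142) in macrophages with at least 5 UMIs of Mmp12, 93.1 in lipid-associated, 88.4 in MHC class II and 37.5 in Kupffer cells. The first was 1.41-fold above the second (1.23 to 1.61). The 135 macrophages with MHC class II genes and in no other subclass had the highest level of Cxcl16, at 360 CPM (308 to 417). Its interval overlapped that of lipid-associated cells. They were second for Ccl24, at 177 CPM, of which 95.2 were left without 1 cell.
Ccl12 had 41.1 CPM in MHC class II macrophages, from 3 cells, and 19.9 in Kupffer cells, from 32. Without 1 cell each, the levels were 8.29 and 14.9. Ccl8 was highest in lipid-associated cells at 31.3 CPM, but 101 of its 120 UMIs there came from 1 cell, and the level without it was 4.97. Ccl12 encodes a further ligand of monocyte receptors.

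Ccl9 was also found outside macrophages. Basophils or mast cells had 547 CPM (468 to 636) and monocytes 524 (480 to 571), with intervals that overlap. Monocyte markers summed to 3355 CPM in the former and 10230 in the latter, and their part was not tested. Hepatocytes had 292 CPM (271 to 313), with Ccl9 in 52.7% of 575 cells. That was 32.6-fold (22.5 to 49.0) above Enpp2-low mesothelial cells, with 8.96 CPM, and 39.7-fold above plasma cells, with 7.35. Thinned to 1000 UMIs, 20.4% of hepatocytes and 1.34% of Enpp2-low mesothelial cells had Ccl9. Macrophage markers summed to 260 CPM in hepatocytes, 261 in Enpp2-low mesothelial and 215 in plasma cells, and their part was not tested. Of the classes shown, hepatocytes were also highest for Cxcl12, the ligand of CXCR4 and ACKR3, with 63.3 CPM (54.0 to 73.8), in 115 cells. Enpp2-positive mesothelial cells followed with 18.7 CPM, 3.40-fold lower (2.00 to 6.21 for the ratio). The 16 endothelial cells had 0 UMIs, but their interval reached 73.5 CPM, and stellate cells have no levels here. Of the 315 UMIs of Cxcl12, 225 were in the 11 broad classes.

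Basophils or mast cells had by far the highest level of Ccl3, with 1570 CPM (1433 to 1716) in 82.1% of 56 cells. The 59 cells with macrophage and neutrophil markers followed with 141 CPM, 11.1-fold lower (8.48 to 14.8 for the ratio). Ccl4, a closely related CC ligand, had 534 CPM (456 to 622) in basophils or mast cells and 295 in the same 59 cells, a ratio of 1.81 (1.43 to 2.31). Ccl5, which attracts T cells, followed another order. It had 1084 CPM (943 to 1241) in 40.9% of 44 T or NK cells, against 31.6 in type 1 conventional dendritic cells. The broad dendritic class, 64 cells, had 870 CPM, but 187 of its 241 UMIs came from 1 cell and 197 CPM were left without it.

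Cxcl9, Xcl1 and Ccl22 rested on few cells. Cxcl9 had 179 CPM (124 to 250) in 40 type 1 conventional dendritic cells, from 5 cells, and 127 (97.7 to 163) in MHC class II macrophages, also from 5. Without 1 cell each, the levels were 103 and 26.9 CPM. Cxcl10 was highest in T or NK cells at 51.4 CPM, with all 10 UMIs in 1 cell. It was spread over more cells in Kupffer (18.7 CPM, 25 cells) and Enpp2-low mesothelial cells (15.8 CPM, 22 cells). Xcl1, the ligand of XCR1, had 87.4 CPM in T or NK cells, from 3 cells, and 21.0 without 1 of them. Ccl22 had 33 UMIs in 11 cells, with 39.7 CPM in dendritic cells and 18.3 without 1 cell. Ccl25 stayed at or under 15.5 CPM in every class, and Ccl27a at or under 24.9.

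Ccr2 was highest in monocytes. Its level was 1205 CPM (1137 to 1276) in monocytes, of which 97.0% had at least 1 UMI. MHC class II macrophages had 534 CPM (471 to 603), type 1 conventional dendritic cells 390 (306 to 490) and granulocyte-monocyte progenitors 380 (355 to 407). The intervals of the last 2 overlap, while monocytes were 2.26-fold above MHC class II macrophages (1.97 to 2.59). Kupffer cells had 3.44 CPM, so that MHC class II macrophages were 155-fold higher (80.5 to 343).
Cx3cr1 had another order. MHC class II macrophages had 314 CPM (267 to 368), 3.72-fold (3.05 to 4.525) above the next class, lipid-associated macrophages, with 84.5. Monocytes had 44.9 CPM (32.6 to 60.3), and the interval of the ratio of MHC class II macrophages to monocytes was 4.98 to 10.02. In MHC class II macrophages, 54.1% of the 74 cells with Ccr2 also had Cx3cr1, against 42.6% of the cells without Ccr2.

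Ccr1 had 660 CPM (445 to 942) in neutrophils low in secondary granules, 300 (242 to 368) in basophils or mast cells, 257 in secondary-granule neutrophils, 239 in monocytes and 183 in MHC class II macrophages. The intervals of basophils or mast cells, secondary-granule neutrophils and monocytes overlapped. Cxcr4, which retains cells in bone marrow, was spread over many leukocyte classes. It had 176 CPM (132 to 230) in basophils or mast cells, 170 in the cells with macrophage and neutrophil markers and 114 (101 to 129) in progenitors. Kupffer cells had 17.2, and both mesothelial classes at most 1.24. Ccr3, the receptor of Ccl24, had 21.8 CPM (16.5 to 28.2) in Kupffer cells and 19.5 (7.17 to 42.5) in basophils or mast cells.

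**Figure D5:**
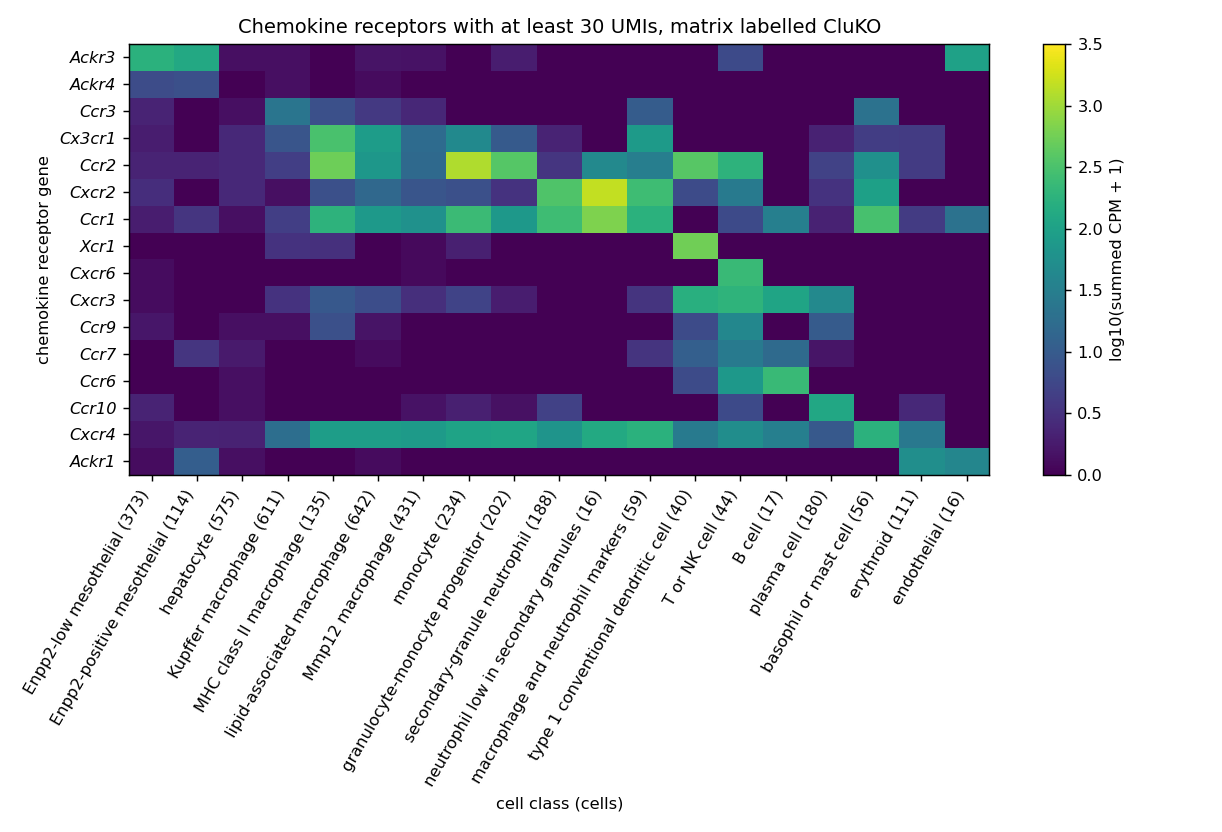
Levels of 16 chemokine receptors with at least 30 UMIs (rows) in 19 cell classes (columns, with the number of cells), as log10 of the summed CPM plus 1. Cxcr4 and Ccr1 are spread over leukocyte classes, whereas Xcr1, Cxcr6 and Ccr10 are each bright in 1 column and Ackr3 in both mesothelial classes and endothelial cells.

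Xcr1, carried by cross-presenting dendritic cells, had 548 CPM (448 to 664) in type 1 conventional dendritic cells, with 77.5% of 40 cells, and 2.30 CPM in Kupffer cells. Cxcr6, the receptor of Cxcl16, had 231 CPM (169 to 309) in T or NK cells and at most 0.309 in every other class. Cxcr3, the receptor of Cxcl9 and Cxcl10, had 190 CPM (134 to 262) in T or NK cells and 158 (107 to 226) in type 1 conventional dendritic cells, which overlapped, and 43.5 (34.4 to 54.4) in plasma cells. The 17 B cells had 108 CPM, from 7 UMIs (43.5 to 223). Ccr10 had 124 CPM (108 to 141) in plasma cells, in 50.6% of 180 cells, and at most 5.14 CPM elsewhere.
Ccr6 had 232 CPM (130 to 382) in 17 B cells and 71.9 in T or NK cells. Ccr7, which guides cells to lymph nodes, had 119 CPM in the broad dendritic class, from 3 cells, and 43.8 without 1 of them. Ccr9 had 41.1 CPM in T or NK cells, all from 1 cell, and 9.05 in plasma cells, from 11.

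Of the atypical receptors, Ackr3, which takes up Cxcl12, had 171 CPM (157 to 186) in Enpp2-low and 127 (103 to 154) in Enpp2-positive mesothelial cells. It was detected in 50.1% and 31.6% of these cells. The 16 endothelial cells had 99.7 CPM, from 5 UMIs (32.4 to 233), and all further classes at most 5.14. Ackr1, the Duffy receptor of red cells and venules, had 53.0 CPM (36.9 to 73.7) in erythroid cells, in 20.7% of 111 cells. Endothelial cells had 39.9 CPM from 2 UMIs. Ackr4 stayed at or under 6.22 CPM, and Ackr2 had 5 UMIs in all.

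Summed over all members in the broad classes, ligands had 3241 CPM in basophils or mast cells, 2367 in macrophages and 1756 in mesothelial cells. Dendritic cells (1694), monocytes (1663) and T or NK cells (1372) followed. Neutrophils had 589, hepatocytes 492, granulocyte-monocyte progenitors 337, erythroid cells 136 and plasma cells 57.7. Receptors were highest in monocytes (1622 CPM), then dendritic cells (1109), T or NK cells (915) and neutrophils (767), and lowest in hepatocytes (11.3).

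In some blocks of neighbouring members, the genes were highest in different classes. How often this holds for neighbours among all genes was not analysed. Some highest classes were near ties. Ccl9 had 547 CPM in basophils or mast cells and 524 in monocytes, and Ccl7 had 163 in mesothelial and 159 in dendritic cells. Positions are those of the GENCODE annotation of GRCm38. The block of Ccl5, Ccl9, Ccl6, Ccl3 and Ccl4 (chr11:83525778-83664683) had its 5 genes highest in 3 of the broad classes. The block of Ccl2, Ccl7, Ccl11, Ccl12, Ccl8 and Ccl1 (chr11:82035571-82305690) had 4 genes with at least 30 UMIs, highest in mesothelial cells (Ccl2 and Ccl7) or in macrophages (Ccl12 and Ccl8). Ccl24 lies at chr5:135569937-135573049, Cxcl13 at chr5:95956951-95961068 and Ackr3 at chr1:90203980-90216751.

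The other 12 detected members had 1 to 27 UMIs each. Cx3cl1, the ligand of CX3CR1, had 27 UMIs, 23 of them in Enpp2-low mesothelial cells (7.11 CPM). Ccl17 had 17 UMIs in 16 cells and Cxcr1 had 12. Ccr4 and Ccr8, with 5 and 3 UMIs, had 4 and 3 of them in T or NK cells. Cxcr5 and Ackr2 are given above, and Ccl19, Ccl19-ps1, Cxcl11, Cxcl17 and Ccl1 had 1 to 3 UMIs. The 9 genes with no UMI were the ligands Ccl11, Ccl20, Ccl21a, Ccl21b, Ccl26, Ccl27b, Ccl28 and Cxcl15 and the pseudogene Ccl19-ps3, which allows up to 0.104 CPM over all cells (3 counts). The Ccl21, Ccl27 and Ccl19 genes have closely similar copies on chromosome 4, and the labels do not say how reads shared by several copies were counted. Exons of 11 members overlap those of another gene, 9 of them among the 41, so their counts may hold reads of both. Ackr1 overlaps Cadm3 on the same strand. Cxcl16 with Zmynd15, Cxcl10 with Art3 and Ccl27a with Il11ra1 overlap on opposite strands. Whether the counting used the strand is not stated in these sources.

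A list of 43 symbols of other chemokine system genes was set beside the members. Of these, 42 were found, all but Adrbk1. In the Enpp2 comparison, 19 were tested, 0 were at least 2-fold higher (background 1.79%) and 1 lower (background 2.09%). This was Rarres2, which encodes the attractant chemerin, with 500 CPM in Enpp2-positive and 1314 in Enpp2-low cells. Its receptor gene Cmklr1 had 77.3 CPM in Kupffer cells and no UMI in mesothelial cells. Between lipid-associated and Kupffer macrophages, 37 were tested, 2 were at least 2-fold higher (background 1.91%) and 4 lower (background 4.76%). Pf4, the chemokine CXCL4, had 1099 against 186 CPM, 5.91-fold higher (5.38 to 6.51), and C5ar1, a complement receptor, 282 against 117. The lower genes were the formyl peptide receptors Fpr1 (13.8 against 406 CPM) and Fpr2 (4.17 against 62.4), the integrin gene Itgal (104 against 402) and Grk2, a kinase of activated receptors (110 against 254). The median difference over the 37 was -0.22 on the log2 scale.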

How the data were processed

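Single liver cells were counted with UMIs after barcoding on the Singleron GEXSCOPE platform, per the labels' protocols. The authors deposited whole UMI counts for each gene in each cell. The submitters' processing notes name GRCm38, and how reads were aligned and counted and cells were called is not stated in these sources. Rows of the 3 wild-type matrices are not paired with gene names here and were not analysed here.

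The filter asked for 200 genes or more and 20% of mitochondrial UMIs or less, which 4616 of 4694 cells passed. A class needed 3 to 6 detected markers and 4 to 20 marker UMIs. Mesothelial cells were split at 2 UMIs of Enpp2. Markers found in over 65% of cells (5 genes, among them S100a8 and Calr) were left out. Minimums and subclass limits were set after the data were seen, and the members and lists were chosen with earlier results of these data known. An order of precedence settled some pairs of gates, and such a cell stayed in the winning class. Mesothelial won over dendritic, stellate or fibroblast and cholangiocyte. Macrophage, monocyte and progenitor won over dendritic. Progenitor also won over macrophage and monocyte, basophil or mast cell over progenitor and monocyte, and plasma cell over B cell. Other cells of more than 1 class were left out, except those with macrophage and neutrophil markers. Scrublet called 6 cells (0.130%), too few to have worked, so its highest scores were used as an alternative.

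Counts were summed per class (numpy 2.4.6, scipy 1.17.1, pandas 2.3.3, scanpy 1.11.5). Ratios carry conditional binomial and shares exact Clopper-Pearson intervals at 95%. Fold limits used 20 CPM added to each side and at least 30 UMIs. Members with at least 30 UMIs are described, the rest by counts. The scripts were tested on simulated data. The values of 1 gene that the rule found are not reported here, although counts of members include it.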

Additional observations from a re-analysis of the deposited data

How the results depend on the processing

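No paired analysis was possible because the 6 samples are pooled and carry no replicate numbers, and because no test was run. The count of members restricted to 1 class moved from 13 to 8 with cells thinned to 1000 UMIs and to 20 with an offset of 5 CPM, and the cause was not tested. It was 11 to 14 in the other 6 alternatives. The count past 2-fold between lipid-associated and Kupffer macrophages moved from 9 to 15 with the offset of 5 CPM and was 9 or 10 in the other 7. Between mesothelial classes it was 1, Cxcl13, in all 8. The highest class of the 41 members was the same for 34 (Leiden clusters, among which no dendritic cluster was named) to 41 (stricter cell filter). Of single differences, 17 moved beyond their counting interval, and none past 2-fold changed sign. Between mesothelial classes, 5 under 2-fold did: Ccl7, Cxcl1 and Ccl9 with stricter gates, Cxcl1 and Ccl9 also with cells of more than 1 class kept, and Cxcl10 (0.16 to -0.43) and Ccl6 (0.12 to -0.09) when thinned. Leaving out the cell with most UMIs in each class was chosen after seeing the data. With 1 pooled matrix, the spread between mice is unknown, and classes of 16 or 17 cells have wide intervals.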
